A study of Mus musculus with 30 samples.

Results

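Bone morphogenetic proteins (BMPs) and growth and differentiation factors (GDFs) are secreted ligands of the TGF-beta superfamily, and noggin, gremlin 1 and chordin are secreted proteins that bind such ligands and keep them from their receptors. The 10 genes described here are 7 ligands, Bmp2, Bmp4, Bmp5, Bmp6, Bmp7, Bmp3 and Gdf5, and 3 antagonists, Nog, Grem1 and Chrd, of 43629 genes in the count table. They were taken by name. All 10 were found by their Ensembl identifiers, had counts in every library and passed the filter on low counts in every fit.

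Callus RNA came from male C57BL/6J mice with an open osteotomy of the right tibia that was stabilised with an intramedullary nail. Lean mice were fed a diet with 10 kcal% fat, and diet-induced obese (DIO) mice a diet with 60 kcal% fat from 6 weeks of age, and both were 20 weeks old at fracture. Both diets were analysed on d3, d5, d7 and d10 after fracture, and DIO also on d14 and d21, with 3 mice and 1 callus each per group and 30 libraries in all. Lean callus of d14 and d21 was not analysed here. The DIO state is a diet-fed model in 1 inbred strain and 1 sex, without a genetic change. Between 13247122 and 26365620 reads per library (median 16854427) were counted on genes. Levels are given as counts per 1000000 (CPM) after TMM scaling of all 30 libraries, and group values as mean ± SD of 3 mice.

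The callus is a mixed tissue in which a clot gives way to fibrous tissue, cartilage and bone, so a level in bulk RNA joins the number of cells of a type with the RNA of each cell, and these cannot be told apart. The summed CPM of 10 chondrocyte markers ran from 978 to 76567 over the 30 libraries and that of 10 osteoblast and osteocyte markers from 15487 to 70904. Skeletal muscle markers ran from 418 to 28215 CPM and were present in every library. Mouse 1 of Lean d10 stood apart from its group, with 76567, 17215 and 14427 CPM of chondrocyte markers in the 3 mice and 1119, 16158 and 11263 CPM of muscle markers. Results that rest on this library are given with and without it. No batch is named in the labels.

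BMP ligands act as dimers on pairs of type I and type II receptor kinases, which phosphorylate SMAD1, SMAD5 and SMAD9. These join SMAD4 in the nucleus and induce target genes such as those of the ID family. In fracture repair the pathway is known for its part in the start of cartilage and bone formation. BMP2 and BMP4 form 1 subgroup of closely related ligands, BMP5, BMP6 and BMP7 another, and GDF5 is best known for joint formation and for condensing cartilage. BMP3 is an atypical member that is known to oppose the osteogenic ligands. Noggin, chordin and gremlin 1 block ligand binding to the receptors, and noggin is itself induced by BMP signals in skeletal cells.

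On the GRCm38 build, with the GENCODE M21 annotation, the ligand genes lie at chr2:133552159-133562885 (+) for Bmp2, chr14:46383520-46390669 (−) for Bmp4, chr9:75775364-75900310 (+) for Bmp5, chr13:38345107-38500302 (+) for Bmp6, chr2:172868012-172940321 (−) for Bmp7, chr5:98854415-98884396 (+) for Bmp3 and chr2:155941023-155945367 (−) for Gdf5. The antagonists lie at chr11:89300638-89302332 (−) for Nog, chr2:113746164-113758646 (−) for Grem1 and chr16:20733127-20742384 (+) for Chrd, so that Bmp2, Bmp7, Gdf5 and Grem1 share chromosome 2. All reads on the exons, UTRs included, were summed to 1 count per gene. The exons of 5 members overlap a gene on the opposite strand, and the strand setting of the counting is not given in the sources used here. The overlap covers 46.7% of the exonic length of Bmp5 (Gm26903, at most 3 counts in any library) and 40.3% of that of Gdf5 (Gm15557, 0 counts in every library). It covers 5.7% of Bmp6 (Txndc5, 3158 to 14182 counts), 4.0% of Bmp4 (Gm15217, 0 counts) and 3.8% of Chrd (Thpo, 12 to 157 counts).

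RefSeq promoter windows of 300 bases on GRCm38.p6, from 250 bases before the start of the transcript to 50 after it, were at hand for 5 of the 10 members. Those of Bmp4 and Bmp6 are printed because these ligands moved in opposite directions between d7 and d10 in DIO callus. Those of Grem1 and Chrd are printed because they hold the letters GGCGCC, the GC-rich element known to bind BMP-activated SMADs. The lines run 5′ to 3′ along the strand of the gene, at chr14:46390620-46390919 (−) for Bmp4, chr13:38345466-38345765 (+) for Bmp6, chr2:113758599-113758898 (−) for Grem1 and chr16:20732877-20733176 (+) for Chrd, and capitals mark GGCGCC.
Bmp4: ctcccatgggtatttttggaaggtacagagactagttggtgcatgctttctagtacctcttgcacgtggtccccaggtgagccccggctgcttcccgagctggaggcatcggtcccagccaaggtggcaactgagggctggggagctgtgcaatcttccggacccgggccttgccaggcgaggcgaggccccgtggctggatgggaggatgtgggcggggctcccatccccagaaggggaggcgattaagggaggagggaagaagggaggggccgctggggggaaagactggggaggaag
Bmp6: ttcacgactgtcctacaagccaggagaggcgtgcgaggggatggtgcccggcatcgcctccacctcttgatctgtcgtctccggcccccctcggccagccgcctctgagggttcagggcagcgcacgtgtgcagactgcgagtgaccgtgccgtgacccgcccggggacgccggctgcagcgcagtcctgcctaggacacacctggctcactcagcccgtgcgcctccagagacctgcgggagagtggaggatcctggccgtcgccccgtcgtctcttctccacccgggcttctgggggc
Grem1: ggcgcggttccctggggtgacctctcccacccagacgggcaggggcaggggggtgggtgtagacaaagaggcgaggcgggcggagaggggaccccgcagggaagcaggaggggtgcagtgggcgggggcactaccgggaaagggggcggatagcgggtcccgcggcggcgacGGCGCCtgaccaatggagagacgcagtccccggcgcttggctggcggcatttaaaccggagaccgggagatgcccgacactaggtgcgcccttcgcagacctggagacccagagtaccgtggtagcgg
Chrd: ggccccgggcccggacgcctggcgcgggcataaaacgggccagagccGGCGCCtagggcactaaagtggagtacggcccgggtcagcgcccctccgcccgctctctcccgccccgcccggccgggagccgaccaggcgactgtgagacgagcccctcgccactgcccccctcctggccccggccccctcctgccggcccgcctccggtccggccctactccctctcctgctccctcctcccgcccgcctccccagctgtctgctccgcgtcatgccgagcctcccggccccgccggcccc
The element reads the same on both strands and starts at base 173 of the Grem1 window and base 48 of the Chrd window. It was found in 11.9% of the 32851 windows of this length and in neither Bmp4, Bmp5 nor Bmp6. That share is over windows of any G and C content, and the windows of Chrd and Grem1 were the richest in G and C of the 5. The shorter SMAD box GTCT, searched on both strands, was in 88.0% of all windows and in each of the 5 members' windows. The letters TGTGGT, a core of RUNX sites, and TATAAA were searched on both strands and matched in 16.8% and 13.6% of all windows, and in none of the 5 members' windows. The windows of Chrd (78.3% G and C), Grem1 (70.7%), Bmp6 (69.3%) and Bmp4 (64.0%) were above the median of 52.7% over all windows, and that of Bmp5 (43.3%) was below it. Such matches describe letters only and say nothing of binding in these samples.

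Per kilobase of exon, the scale on which genes can be compared, the 7 ligands together stood above the 3 antagonists in every library. In Lean callus the ligand sum was 21.4 ± 3.31 CPM per kb on d3 and 53.7 ± 15.5 on d10, and the antagonist sum 6.44 ± 0.325 and 9.89 ± 4.66. Without Lean d10 mouse 1 the d10 means were 45.8 CPM per kb for the ligands and 7.22 for the antagonists. In DIO callus the ligand sum went from 18.2 ± 3.83 CPM per kb on d3 to 38.4 ± 0.971 on d10 and 23.1 ± 2.68 on d21. The antagonist sum in DIO callus was highest on d7, at 8.51 ± 1.95 CPM per kb, and lowest on d21, at 5.41 ± 0.876. The ligand sum was thus 2.83 ± 0.601 times the antagonist sum in DIO d3, the lowest of the 10 groups, and 6.17 ± 1.15 times in DIO d10. In Lean d10 it was 5.72 ± 1.17 times, and 6.31 without mouse 1, so that the highest of the 10 groups was DIO d10 with that library and Lean d10 without it. In the 3 DIO mice these ratios were 2.21, 3.41 and 2.88 on d3 and 7.45, 5.83 and 5.23 on d10, so the groups did not overlap. These sums over a chosen list were not tested. They count Bmp3 among the ligands and leave out 14 other listed BMP and GDF ligands and 18 other antagonists and extracellular modulators. Of those left out, the modulators Nbl1, Twsg1 and Kcp were at 149.8, 120.4 and 14.9 CPM on average in Lean d10, and the ligands Gdf11, Gdf15 and Gdf3 at 35.1, 1.60 and 1.12 CPM. The ratios thus hold for this list and not for all ligands and antagonists.

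The make-up of the ligand sum shifted with the day. Bmp5 and Bmp4 held the largest shares on d3 in DIO callus, 36.6% ± 6.39 and 26.9% ± 7.96, and Bmp5, Bmp2 and Bmp4 in Lean callus, 29.2% ± 3.95, 24.7% ± 1.58 and 24.2% ± 3.89. On d7, Bmp4 held 34.6% ± 6.87 of the ligand sum in Lean callus and 15.1% ± 4.34 in DIO callus, where Gdf5 held 27.3% ± 8.11 against 4.99% ± 1.42 in Lean. On d10, Bmp4 had the largest mean share in both diets, with 33.4% ± 11.7 in Lean and 39.5% ± 5.24 in DIO callus. In Lean d10 mouse 1 Gdf5 led instead, with 36.4% against 20.3% for Bmp4, while in the other mice of the group Gdf5 held 8.64% and 12.6% and Bmp4 42.7% and 37.2%. Among the antagonists of DIO callus, Nog went from the highest per-length level on d3 (3.22 ± 0.702 CPM per kb) to the lowest on d21 (0.855 ± 0.474), and Grem1 went from the lowest (0.891 ± 0.595) to the highest (3.35 ± 1.12).

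**Figure D1:**
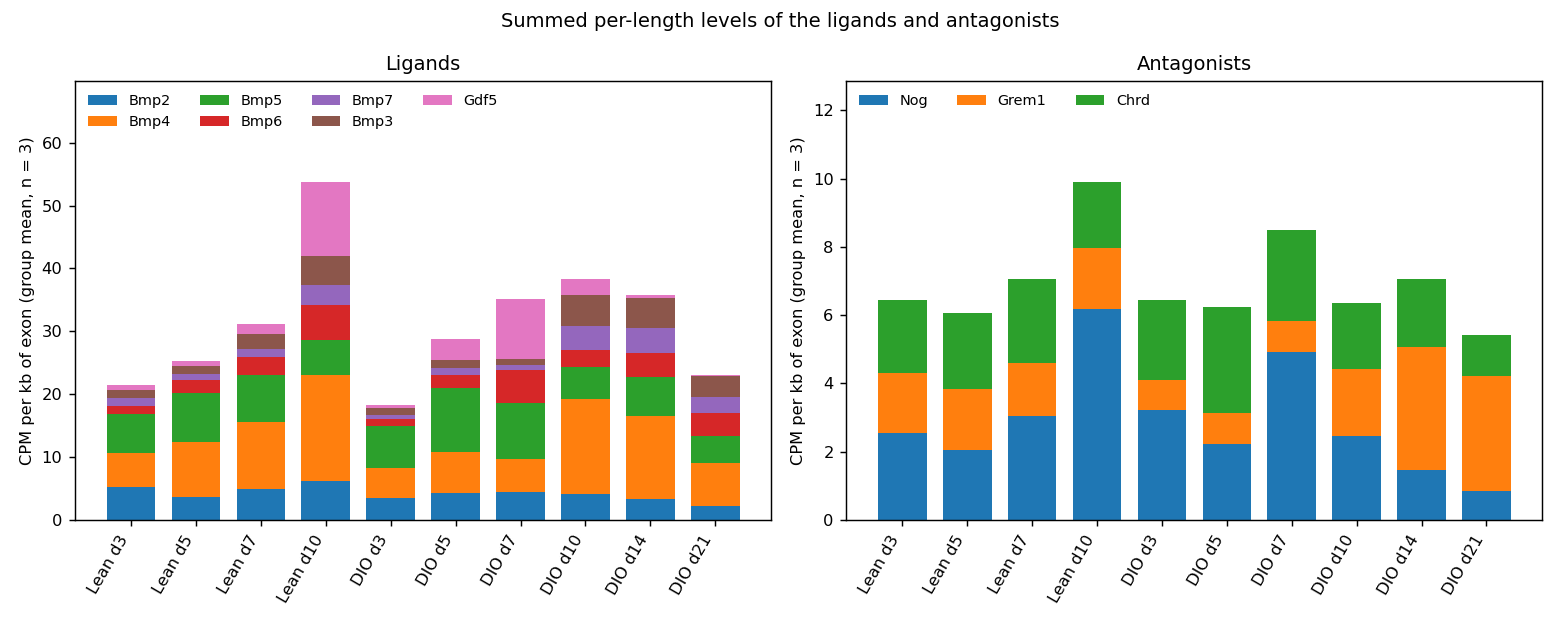
Stacked bars of the group mean level of each ligand (left) and each antagonist (right), in CPM per kb of exon, in the 10 groups of 3 mice. Gdf5 is a wide band in DIO d7 and in Lean d10, where mouse 1 carries most of it, Bmp4 in both groups of d10, and Grem1 takes most of the antagonist bar in DIO d14 and d21, where Nog is narrow.

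Gdf5 was the member with the widest range, from 0.300 CPM (5 counts) in a DIO d3 library to 58.7 CPM in Lean d10 mouse 1. In Lean callus the 3 mice were at 1.54, 1.29 and 1.90 CPM on d3, 1.41, 1.08 and 2.75 on d5, 2.99, 2.87 and 5.09 on d7 and 58.7, 7.71 and 15.5 on d10. In DIO callus they were at 0.300, 0.738 and 1.57 CPM on d3, 8.39, 6.63 and 8.68 on d5, 14.8, 28.8 and 23.3 on d7, 3.91, 9.52 and 5.25 on d10, 0.605, 1.12 and 1.16 on d14 and 0.921, 0.470 and 0.674 on d21. The level was thus highest on d7 in DIO callus and on d10, the last day analysed, in Lean callus. By mean level the 10 groups ran in the order Lean d10 (27.3 ± 27.4 CPM), DIO d7 (22.3 ± 7.04 CPM), DIO d5, DIO d10, Lean d7, Lean d5, Lean d3, DIO d14, DIO d3 and DIO d21 (0.688 ± 0.226 CPM). Neighbours in this order overlapped in 6 of 9 pairs and were apart between DIO d7 and DIO d5, Lean d7 and Lean d5, and Lean d3 and DIO d14. The first place of Lean d10 rests on mouse 1: without it the mean was 11.6 CPM, below DIO d7 and above DIO d5.

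Bmp3 and Bmp7 shared a late rise. Bmp3 in Lean callus was at 6.47, 10.01 and 12.9 CPM on d3, 6.59, 8.55 and 11.9 on d5, 17.8, 20.2 and 16.7 on d7 and 32.5, 29.5 and 38.6 on d10. In DIO callus it was at 3.72, 11.8 and 8.54 CPM on d3, 12.5, 7.89 and 7.61 on d5, 8.06, 4.93 and 7.53 on d7, 30.3, 35.0 and 42.7 on d10, 38.6, 26.1 and 42.7 on d14 and 21.9, 24.7 and 27.5 on d21. Lean callus was already above its earlier levels on d7, while DIO callus was at its lowest on that day. Bmp7 went from 4.63, 6.09 and 4.75 CPM on d7 to 12.5, 11.3 and 15.3 on d10 in Lean callus, and from 3.72, 1.84 and 3.09 to 13.04, 18.96 and 14.4 in DIO callus. On d3 and d5 the 12 libraries of both diets held between 1.32 and 7.81 CPM of Bmp7. In DIO callus Bmp7 was still at 15.8 ± 4.08 CPM on d14 and 10.2 ± 2.46 CPM on d21. In the order of group means, DIO d10, DIO d14 and Lean d10 led for both genes, with overlapping libraries, and DIO d21 followed.

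Bmp4, the ligand with the highest per-length median over the libraries (8.03 CPM per kb), was at 11.2, 8.50 and 15.8 CPM on d3, 15.4, 18.5 and 24.5 on d5, 29, 22.9 and 20.7 on d7 and 31.6, 36.9 and 44.4 on d10 in Lean callus. In DIO callus it was at 11.1, 8.86 and 11.9 CPM on d3, 21.6, 9.74 and 13.4 on d5, 15.6, 9.27 and 10.7 on d7, 40.1, 33.0 and 29.4 on d10, 31.1, 22.7 and 34.5 on d14 and 11.4, 16.3 and 17.6 on d21. The Lean means were higher on each later day, while the DIO means stayed at or below 14.9 ± 6.08 CPM until d7 and were 34.2 ± 5.41 CPM on d10. Bmp2, its closest relative, was the only member that passed the test between days in neither diet. Its group means lay between 8.01 ± 1.75 CPM in DIO d21 and 22.2 ± 8.70 CPM in Lean d10 (17.8 CPM without mouse 1, below Lean d3). All 9 neighbouring pairs in the order of the means of 3 mice overlapped, as they also did for Bmp4, Bmp5, Bmp6 and Nog.

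Bmp6 in Lean callus was at 5.04, 5.99 and 4.25 CPM on d3, 5.65, 8.19 and 10.2 on d5, 9.08, 8.48 and 16.4 on d7 and 39.2, 12.9 and 12.7 on d10, where mouse 1 alone was far above the others. In DIO callus it was at 4.27, 3.69 and 4.48 CPM on d3, 10.6, 9.38 and 4.06 on d5, 27.7, 14.3 and 20.6 on d7 and 9.97, 9.66 and 10.8 on d10. It was then at 14.8 ± 2.11 CPM on d14 and 14.2 ± 1.72 CPM on d21, so that DIO callus had its highest level on d7. Bmp5, of the same subgroup, ran differently and was highest early. Its DIO means were 27.1 ± 8.49 CPM on d3, 40.5 ± 6.82 CPM on d5, 35.4 ± 13 CPM on d7, 20.5 ± 4.61 CPM on d10, 25.2 ± 0.669 CPM on d14 and 17.5 ± 0.696 CPM on d21. Its Lean means lay between 22.6 ± 9.46 CPM on d10 and 31.7 ± 1.46 CPM on d5.

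Of the antagonists, Nog was at 21.6 CPM in Lean d10 mouse 1, against 5.10 and 4.68 CPM in the other mice of that group, and between 0.806 and 11.1 CPM in all libraries but this one. In DIO callus Nog was at 3.88, 4.96 and 2.48 CPM on d5, 11.1, 4.41 and 9.41 on d7, 3.22, 5.12 and 4.20 on d10, 1.93, 2.54 and 2.91 on d14 and 0.806, 2.35 and 1.19 on d21. It was highest on d7, where mouse 2 was the lowest, and its means were lower on each later day. Grem1 ran the other way in DIO callus, with 4.53, 4.41 and 2.35 CPM on d7, 7.44, 6.06 and 10.8 on d10, 17.8, 12.6 and 14.6 on d14 and 19.2, 12.04 and 10.5 on d21. In Lean callus the Grem1 means stayed between 6.43 ± 1.39 CPM on d7 and 7.44 ± 4.70 CPM on d10, where mouse 1 was the lowest at 2.44 CPM. Chrd had the narrowest range of the 3, with Lean means between 12.04 ± 1.05 CPM on d10 and 15.4 ± 1.21 CPM on d7. In DIO callus Chrd went from 19.3 ± 3.04 CPM on d5 to 7.51 ± 2.32 CPM on d21.

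**Figure D2:**
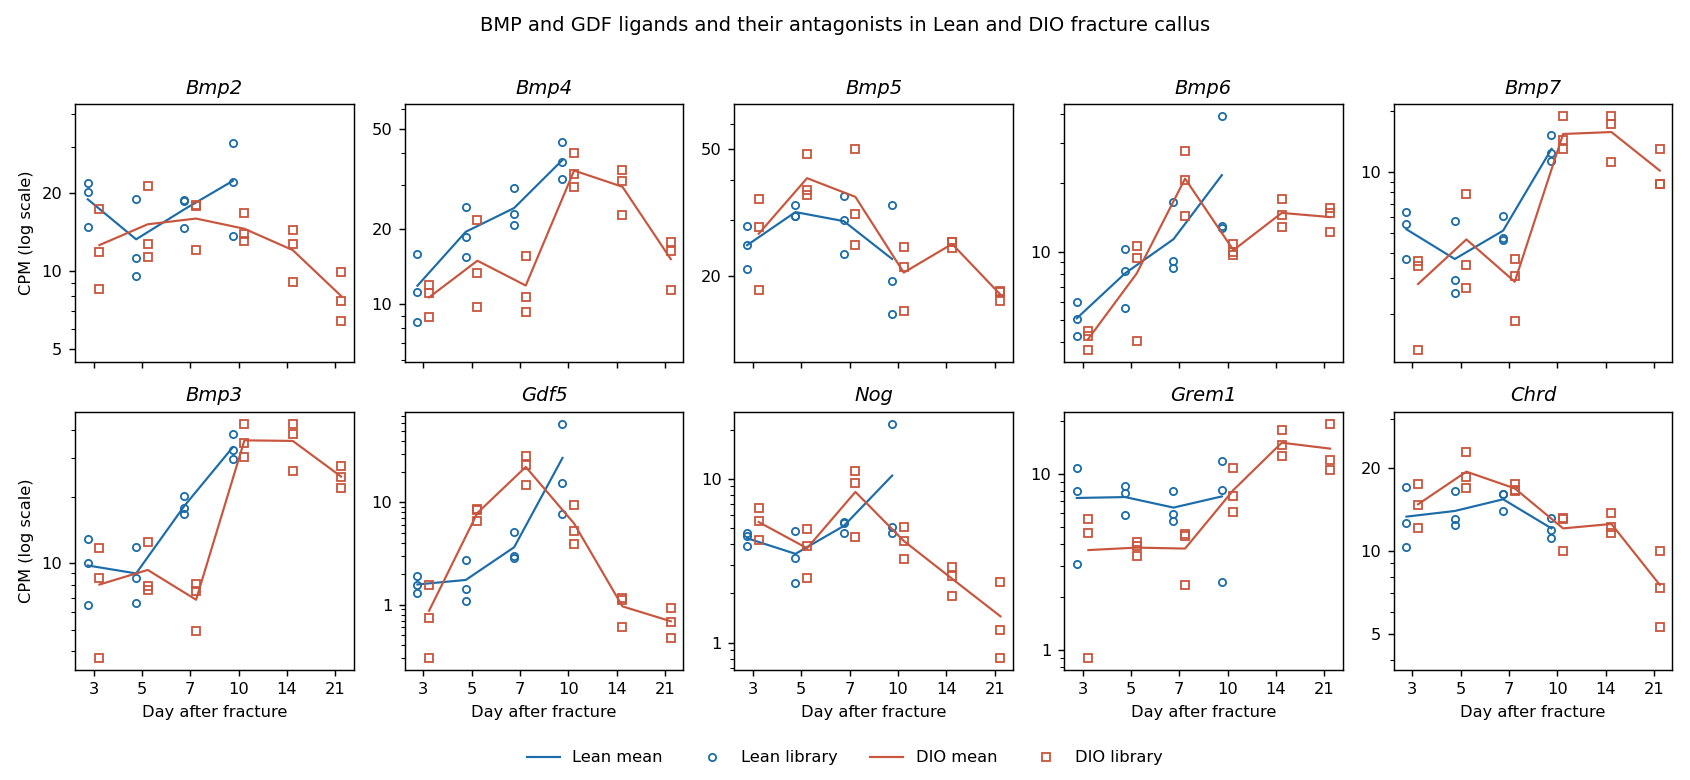
CPM (log axis) of each of the 10 members by day after fracture, drawn at equal steps, in Lean (blue circles, d3 to d10) and DIO (red squares, d3 to d21) callus, with 1 symbol per library and lines through the group means of 3 mice. Gdf5 peaks on d7 in DIO callus and is highest on d10 in Lean callus, and Bmp3 and Bmp7 step up between d7 and d10 in DIO callus.

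Within Lean callus, 5 ligands and no antagonist differed between any of the 4 days (19% of all 16471 genes tested did). Bmp4, Bmp6, Bmp7, Bmp3 and Gdf5 passed, with adjusted p from 0.00165 for Bmp3 to 0.0224 for Bmp6 in edgeR's quasi-likelihood test with Benjamini-Hochberg adjustment over all genes, which gives every adjusted p here unless DESeq2 is named. Bmp6 was lost, and the count was 4, without Lean d3 mouse 1, 2 or 3. The same 5 genes were higher on d10 than on d3, where 29.3% of genes were called and 15.2% were higher. Gdf5 rose 17.7-fold (log2 fold change 4.15, SE 0.68, adjusted p = 0.00156) and Bmp6 4.35-fold (log2 fold change 2.12, SE 0.44, adjusted p = 0.00504). Bmp3, Bmp4 and Bmp7 rose 3.50-fold, 3.26-fold and 2.55-fold, and the d10 libraries of all 5 genes lay above those of d3, as did those of 20.6% of all genes. Without Lean d10 mouse 1 all 5 were still higher, with log2 fold changes of 2.92 for Gdf5 and 1.37 for Bmp6. Nog, at a log2 fold change of 1.31, SE 0.51, adjusted p = 0.0724, did not pass and came to 0.21 without that mouse, although it passed without Lean d10 mouse 2 or 3 (adjusted p = 0.037 and 0.0265), in DESeq2 (0.0343) and in 1 fit of all 30 libraries (0.0354). DESeq2 and the fit of all 30 libraries also called Nog over all Lean days, as did the fit without Lean d10 mouse 3. The 10 members had a median log2 fold change of 1.33 beside 0.02 for all genes.

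Most of the single steps in Lean callus were not resolved. From d3 to d5 edgeR called 0 members (0.449% of genes were called), with 1 member, Bmp4, and 14.8% of genes at an unadjusted p under 0.05, and DESeq2 called 0. From d5 to d7 edgeR called 0 members and 0% of genes, with 1 member, Bmp3, and 5.62% of genes at an unadjusted p under 0.05 (Bmp3 log2 fold change 1.01, SE 0.26, adjusted p = 0.637), and DESeq2 called 0 members. From d7 to d10 it called 2 members, both higher, beside 2.73% of genes (1.09% higher). Gdf5 rose 7.54-fold (log2 fold change 2.92, SE 0.64, adjusted p = 0.0405) and Bmp7 2.56-fold (1.35, SE 0.32, adjusted p = 0.0462). The Gdf5 call was lost without Lean d10 mouse 1 (log2 fold change 1.69, adjusted p = 0.0973) and without Lean d7 mouse 1, 2 or 3 (adjusted p = 0.0901, 0.134 and 0.114). The Bmp7 call was lost without Lean d7 mouse 1, 2 or 3 (0.0982, 0.122 and 0.153) or Lean d10 mouse 1 or 3 (0.096 and 0.0564), at log2 fold changes of 1.23 to 1.48.

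In DIO callus 9 of 10 members differed between any of the 6 days, where 59.1% of all 16995 genes did. The adjusted p ran from 1.9e-07 for Gdf5 to 0.00332 for Bmp5, and Bmp2 was at 0.0684. Bmp2 passed as well, making 10, in DESeq2, with no filter on low counts and without DIO d3 mouse 1 or 3, DIO d5 mouse 2 or DIO d7 mouse 2. The first step, from d3 to d5, raised only Gdf5 among the members (1.68% of genes were called and 1.39% were higher). It rose 9.10-fold (log2 fold change 3.19, SE 0.46, adjusted p = 0.00152). Without DIO d5 mouse 3, which had the lowest Bmp6 of its group, Bmp6 was called as well, at a log2 fold change of 1.27 (adjusted p = 0.0139). From d5 to d7 edgeR called 0 members and 0.0177% of genes, with 3 members and 14.2% of genes at an unadjusted p under 0.05. These were Bmp6 (1.38, SE 0.29, adjusted p = 0.06), Gdf5 (1.49, SE 0.40, adjusted p = 0.111) and Nog (1.14, SE 0.39, adjusted p = 0.203), each as log2 fold change. DESeq2 called Bmp6 and Gdf5 in this step (adjusted p = 0.00101 and 0.0126), and edgeR called Bmp6 without DIO d7 mouse 2.

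The step from d7 to d10 moved most members. In DIO callus 6 of 10 passed the test beside 13% of genes, 3 higher (6.01% of genes were higher) and 3 lower (7.01% were lower). Bmp7, Bmp3 and Bmp4 rose 5.34-fold (log2 fold change 2.42, SE 0.42, adjusted p = 0.000834), 5.25-fold (2.39, SE 0.33, adjusted p = 0.00013) and 2.88-fold (1.52, SE 0.28, adjusted p = 0.00132). Gdf5 fell 3.57-fold (log2 fold change -1.84, SE 0.40, adjusted p = 0.0053), Bmp6 2.06-fold (-1.04, SE 0.28, adjusted p = 0.0211) and Bmp5 1.72-fold (-0.79, SE 0.25, adjusted p = 0.0469). For each of these 6 genes the libraries of the 2 days did not overlap, as for 27.1% of all genes. Summed muscle markers also stood higher on d10 than on d7 in DIO callus without overlap, at 22336, 28215 and 21050.0 against 20160.0, 7311 and 12826 CPM. So did adipocyte markers at 237 to 361 against 143 to 178 CPM, osteoblast and osteocyte markers at 40681 to 48483 against 23958 to 40195 CPM, and osteoclast markers. Fibroblast and periosteal markers stood lower without overlap, at 1249 to 1460 against 1706 to 4826 CPM. So did tendon and joint markers, at 168 to 221 against 323 to 897 CPM, and chondrocyte markers. The part of these shifts in this step was not tested. None of the 3 antagonists passed the test, with log2 fold changes of -0.99 (SE 0.39) for Nog, 1.10 (SE 0.44) for Grem1 and -0.48 (SE 0.21) for Chrd and adjusted p of 0.103, 0.112 and 0.157. Bmp7, Bmp3, Bmp4 and Gdf5 passed whichever 1 mouse was left out. The Bmp6 call was lost in 1 fit of all 30 libraries (adjusted p = 0.0642) and without DIO d7 mouse 1 (0.109) or DIO d10 mouse 1, 2 or 3 (0.0632, 0.0756 and 0.0506), and the Bmp5 call without DIO d7 mouse 1 or 2 (0.0589 and 0.273) or DIO d10 mouse 1 or 2 (0.0928 and 0.196, and a log2 fold change of -0.46 without DIO d7 mouse 2). Bmp5 also missed the threshold with the replicate number as a block (0.0676), and Nog passed without DIO d7 mouse 2 (adjusted p = 0.039).

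**Figure D3:**
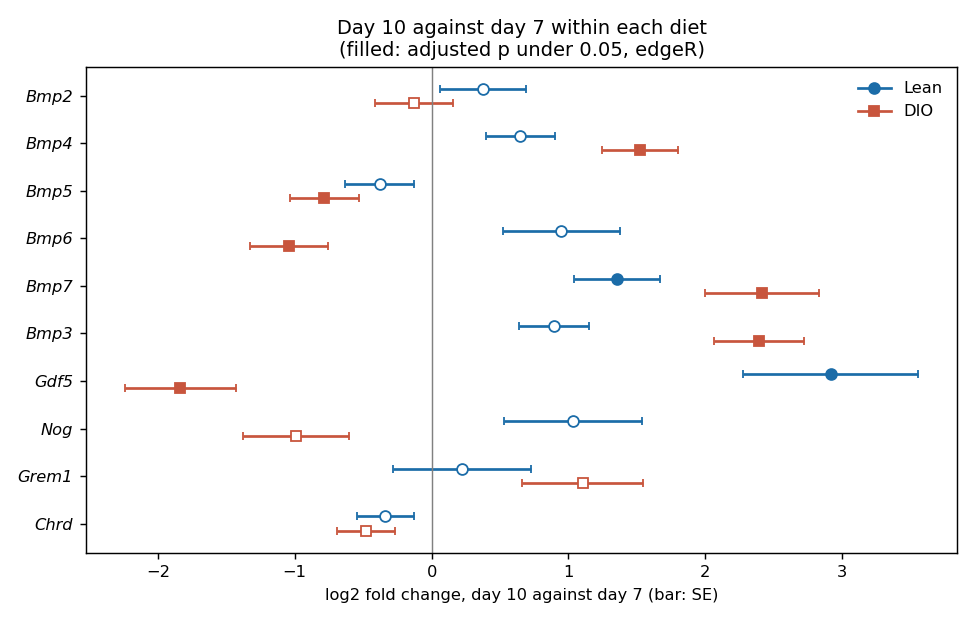
Log2 fold change of d10 against d7, with its SE, for the 10 members in Lean (blue circles) and DIO (red squares) callus, from fits of 12 Lean and 18 DIO libraries. Filled symbols passed the test, and Gdf5 lies to the right of 0 in Lean and to the left in DIO callus.

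Later changes in DIO callus were fewer. From d10 to d14, 1 member passed the test beside 0.759% of genes (0.177% lower): Gdf5 fell 6.44-fold (log2 fold change -2.69, SE 0.46, adjusted p = 0.0232). This call was lost without DIO d10 mouse 2 or 3 (adjusted p = 0.156 and 0.0958), without DIO d14 mouse 1 or 2 (0.11 and 0.135), and in 1 fit of all 30 libraries (0.0746). From d14 to d21, 2 members passed, both lower, beside 19.6% of genes (9.03% lower). Bmp4 fell 1.95-fold (log2 fold change -0.96, SE 0.27, adjusted p = 0.0214) and Chrd 1.67-fold (-0.73, SE 0.22, adjusted p = 0.0254). The Bmp4 call was lost without DIO d14 mouse 1 or 3 or DIO d21 mouse 1 (0.062, 0.088 and 0.106), and the Chrd call without DIO d14 mouse 1 or 3 or DIO d21 mouse 1 or 3 (0.082, 0.0515, 0.128 and 0.057). Grem1 was above its d7 level in every d14 and d21 library, but no single step of it passed the test.

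Between the diets, d7 gave the most differences among the members. On d3 edgeR called 0 members and 0% of genes, with 0 members and 15.1% of genes at an unadjusted p under 0.05, and DESeq2 called 0 members. On d5 it called 1 member beside 1.08% of genes (0.134% higher in DIO callus). Gdf5 was 4.47-fold higher in DIO callus (log2 fold change 2.16, SE 0.36, adjusted p = 0.0445). The call was lost without Lean d5 mouse 1 or 2 (adjusted p = 0.0631 and 0.126) or DIO d5 mouse 1, 2 or 3 (0.13, 0.156 and 0.213), with the replicate number as a block (0.203) and in 1 fit of all 30 libraries (0.0779), at log2 fold changes of 1.91 to 2.27. Grem1 ran lower in DIO callus on d5, at 3.88, 4.12 and 3.44 CPM against 7.82, 8.49 and 5.83 CPM in Lean callus. The difference (log2 fold change -0.95, SE 0.23, adjusted p = 0.0915) missed the threshold. It passed only in DESeq2 (adjusted p = 0.0135) and without Lean d5 mouse 3 (adjusted p = 0.0392 in edgeR).

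On d7, 2 members differed between the diets beside 2.32% of genes. Gdf5 was 6.13-fold higher in DIO callus (log2 fold change 2.62, SE 0.33, adjusted p = 0.00932), where 1.40% of genes were higher, and passed whichever 1 mouse was left out. Bmp3 was 2.63-fold lower (log2 fold change -1.40, SE 0.25, adjusted p = 0.0241), where 0.920% of genes were lower, and the call was lost without Lean d7 mouse 1 or 2 (adjusted p = 0.0743 and 0.138). For 6 of 10 members the libraries of the diets did not overlap on d7, beside 22.1% of all genes. Besides Gdf5 and Bmp3, these were Bmp4, Bmp7 and Grem1, lower in DIO callus, and Chrd, higher. Bmp4 was at 15.6, 9.27 and 10.7 CPM in DIO and 29, 22.9 and 20.7 CPM in Lean callus. Its difference (log2 fold change -1.01, SE 0.25, adjusted p = 0.0731) missed the threshold and passed in DESeq2 (adjusted p = 0.00849), with no filter (0.0269) and in 1 fit of all 30 libraries (0.0371). Those of Bmp7, Grem1 and Chrd were -0.82 (SE 0.34), -0.76 (SE 0.34) and 0.14 (SE 0.19), with adjusted p of 0.268, 0.296 and 0.765.

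On d10 edgeR called 0 members and 0% of genes between the diets, with 2 members and 7.05% of genes at an unadjusted p under 0.05, and DESeq2 called 0 members. These were Gdf5 (log2 fold change -2.11, SE 0.69, adjusted p = 0.686) and Bmp6 (-1.08, SE 0.43, adjusted p = 0.686), both at lower means in DIO callus. Without Lean d10 mouse 1 the log2 fold changes were -0.90 for Gdf5 and -0.34 for Bmp6. Bmp3, Bmp4 and Bmp7, which had been at lower means in DIO callus on d7, were within 0.26 of 0 on the log2 scale on d10, with libraries that overlapped.

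**Figure D4:**
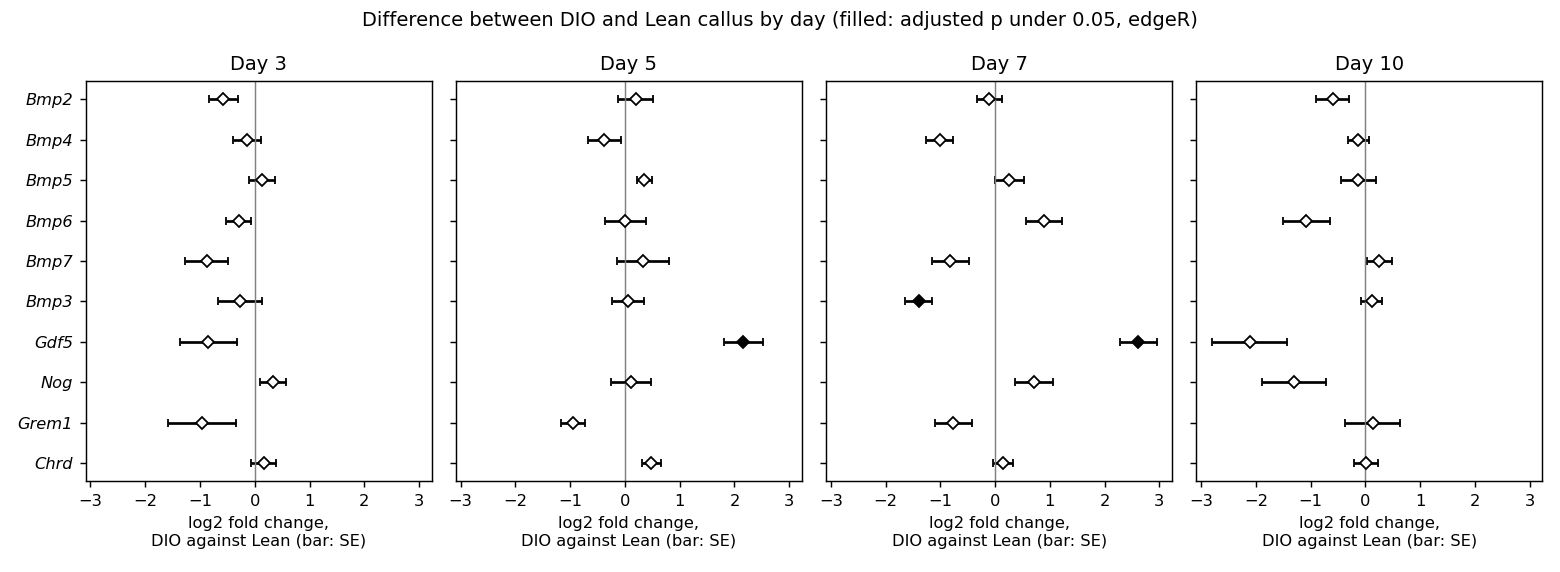
Log2 fold change of DIO against Lean callus, with its SE, for the 10 members on d3, d5, d7 and d10 (3 against 3 mice on each day). Filled symbols passed the test: Gdf5 on d5 and d7, to the right of 0, and Bmp3 on d7, to the left.

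The change of the diet difference from d7 to d10 was tested as an interaction in 1 model over the 24 libraries from d3 through d10, since a call on 1 day and none on another does not show a change. It passed for 2 members, both with a falling difference, beside 5.07% of 17057 genes (3.37% falling). The difference between DIO and Lean callus fell by 4.74 on the log2 scale for Gdf5 (SE 0.81, adjusted p = 0.00334) and by 1.97 for Bmp6 (SE 0.56, adjusted p = 0.0444). Gdf5 passed whichever 1 mouse was left out, and its difference fell by 3.50 without Lean d10 mouse 1 (adjusted p = 0.00746). Bmp6 did not pass without that mouse (a fall of 1.21, adjusted p = 0.205). Nor did it pass without Lean d7 mouse 1 or 2 (adjusted p = 0.0916 and 0.118), DIO d7 mouse 1 (0.0959) or DIO d10 mouse 1, 2 or 3 (0.098, 0.082 and 0.0684), or with the replicate number as a block (0.0623). Bmp3 moved the other way (1.52, SE 0.45, adjusted p = 0.0544) and missed the threshold, as did Nog (-2.01, SE 0.65, adjusted p = 0.0737), and both passed in DESeq2 (0.0195 and 0.0265) and without Lean d10 mouse 3 (0.0436 and 0.0226). Bmp3 also passed with no filter on low counts (0.0418). Nog also passed without Lean d10 mouse 2 (0.0294) and came to a fall of 0.91 without Lean d10 mouse 1. The time course over d3 to d10, fitted with polynomials of degree 2 in the day, differed by diet for Gdf5 alone among the members (adjusted p = 0.00466, beside 8.13% of genes). Bmp4 joined it without DIO d5 mouse 1.

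The rest of the pathway was read from lists of receptors and co-receptors (11 genes), SMADs (6), target genes (12), other BMP and GDF ligands (14) and other antagonists and extracellular modulators (18). From d7 to d10 in DIO callus 13% of all genes were called, with 6.01% higher and 7.01% lower. Among the lists, 0 of 11 receptor genes tested rose and 2 fell (median log2 fold change -0.43, beside -0.02 for all genes). These were Acvr1, a type I receptor, at -0.73 (SE 0.18, adjusted p = 0.0114), and the co-receptor Rgma, at -1.45 (SE 0.41, adjusted p = 0.0235). Of 6 SMAD genes 2 rose and 0 fell (median 0.26), namely Smad9 at 1.37 (SE 0.30, adjusted p = 0.00523) and the inhibitory Smad6 at 1.28 (SE 0.31, adjusted p = 0.00957). Of 11 target genes tested 4 rose and 0 fell (median 0.71), led by Id4 at 1.94 (SE 0.33, adjusted p = 0.000844), Hey1 at 1.78 (SE 0.34, adjusted p = 0.00198) and Dlx3 at 1.68 (SE 0.36, adjusted p = 0.00475). Of 15 other antagonists and modulators tested 1 rose and 7 fell (median -0.98). Bmper, a BMP-binding protein, fell by 2.15 (SE 0.29, adjusted p = 0.000115) and Fstl3, which binds activins and related ligands, by 1.52 (SE 0.25, adjusted p = 0.000574) on the log2 scale, while Sost, the osteocyte product sclerostin and chiefly a WNT antagonist, rose by 2.27 (SE 0.33, adjusted p = 0.000178). Of 8 other ligands tested 1 rose, Gdf11, at 0.65 (SE 0.20, adjusted p = 0.045).

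From d3 to d10 in Lean callus, where 29.3% of all genes were called, 1 of 6 SMAD genes, 3 of 11 target genes, 4 of 9 other ligands and 6 of 15 antagonists and modulators rose, and 1 of 11 receptors, 1 target gene, 2 other ligands and 1 modulator fell. The modulators Nbl1 and Kcp rose by 1.66 (SE 0.22, adjusted p = 0.00048) and 1.89 (SE 0.26, adjusted p = 0.000641) on the log2 scale, and Hey1 by 1.35 (SE 0.35, adjusted p = 0.0146). From d7 to d10 in Lean callus, where 2.73% of all genes were called, none of the list genes tested rose and 1 fell, Gdf15, a stress-induced ligand, at -1.67 (SE 0.40, adjusted p = 0.0481). From d14 to d21 in DIO callus, where 19.6% of all genes were called and 9.03% were lower, 3 of 6 SMAD genes, 5 of 11 target genes, 4 of 15 antagonists and modulators, 2 of 8 other ligands and 1 of 11 receptors fell and 1 target gene rose. Hey1 fell from 66.1 ± 17.3 to 16.1 ± 10.5 CPM and Id3, a direct SMAD target, from 508.6 ± 122.5 to 201.2 ± 44.9 CPM. Between the diets on d7, Hey1 was lower in DIO callus (-1.03 (SE 0.20, adjusted p = 0.0323)), as was Sost (-1.65 (SE 0.22, adjusted p = 0.0118)), and Chrdl2, a chordin-like protein of cartilage, was higher (3.01 (SE 0.44, adjusted p = 0.0152)). Chrdl2 stood at 6.01 ± 2.59 CPM in DIO and 0.741 ± 0.0366 CPM in Lean callus.

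Cell type markers moved with several of these results, and their part in them was not tested. Over the 30 libraries Gdf5 correlated most with the sum of the 10 chondrocyte markers (Pearson's r = 0.906 and Spearman's rho = 0.867 on log2 values, and r = 0.872 without the 2 libraries farthest from the median of the sum). The points share libraries, days and diets, and such values are descriptions with no test. On d7 that sum was 38449, 19696 and 45796 CPM in DIO and 7330.0, 6339 and 18375 CPM in Lean callus, with no overlap, as for Gdf5. On d5 the sums of the diets overlapped, at 18901, 14420.0 and 10181 CPM in DIO and 2921, 4179 and 12501 CPM in Lean callus. This overlap came from Lean d5 mouse 3 alone, and the other Lean mice lay below every DIO mouse. Gdf5 did not overlap on d5, and Lean d5 mouse 3 held 2.75 CPM of it beside 6.63 to 8.68 CPM in the DIO d5 mice. On d7 the libraries of the diets closest in the sum were Lean mouse 3 and DIO mouse 2, with 5.09 and 28.8 CPM of Gdf5. Other lists did not overlap between the diets on d5. The sum of 8 leukocyte markers was 1652, 2389 and 1701 CPM in Lean and 1013, 924 and 930.0 CPM in DIO callus, and that of 6 fibroblast and periosteal markers 2188 to 2267 against 2475 to 3183 CPM. Leukocyte markers were also higher in Lean callus without overlap on d3 (2064 to 3003 against 1049 to 1852 CPM) and d7 (1727 to 2134 against 731 to 1506 CPM), and Gdf5 had r = -0.732 and rho = -0.751 with them over the 30 libraries. The 5 tendon and joint markers were higher in DIO callus without overlap on d7 (323 to 897 against 235 to 287 CPM). Gdf5 had r = 0.140 and rho = 0.101 with these over the 30 libraries. From d7 to d10 in DIO callus the chondrocyte sum went down to 4465, 9124 and 5935 CPM. The 10 markers were detected with at least 3 counts in most libraries, 9 of 10 in the lowest, and Matn1 was at 0 in a Lean d3 library.

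Bmp3 and Bmp7 ran with the sum of the 6 osteoclast markers (r = 0.923 and rho = 0.898 for Bmp3, 0.873 and 0.846 for Bmp7). That sum was 4963, 5149 and 4156 CPM in Lean and 1521, 2249 and 2019 CPM in DIO callus on d7, with no overlap. On d10 it was 12650.0, 13565 and 16064 CPM in Lean and 13846, 13557 and 17450.0 CPM in DIO callus. It thus stepped up between d7 and d10 in both diets, as Bmp7 did. Bmp4 also correlated with it (r = 0.801, rho = 0.839), and with the osteoblast and osteocyte sum (0.664 and 0.730), which was the sum closest to Bmp2 (0.729 and 0.616). Bmp3 and Bmp7 were not tied to the osteoclast sum alone. They had negative values with tendon and joint markers (-0.765 and -0.852 for Bmp3, -0.716 and -0.809 for Bmp7). With fibroblast and periosteal markers these were -0.678 and -0.721 for Bmp3 and -0.664 and -0.717 for Bmp7. Bmp5 and Chrd went with 6 fibroblast and periosteal markers (0.786 and 0.806 for Bmp5, 0.808 and 0.760 for Chrd), whose sum in DIO callus went from 2475 to 3183 CPM on d5 to 447 to 645 CPM on d21. Bmp6 was closest to 4 hypertrophic chondrocyte markers (0.743 and 0.653). Grem1 had positive values with 6 adipocyte markers (0.615 and 0.682) and with osteoclast markers (0.587 and 0.564), and without Lean d10 mouse 1 r was 0.578 and 0.683 for these lists. The adipocyte sum in DIO callus went from 143 to 178 CPM on d7 to 700.0 to 802 CPM on d21, and its markers Plin1, Cidec or Lep were at 0 in some libraries of d3 to d10.

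**Figure D5:**
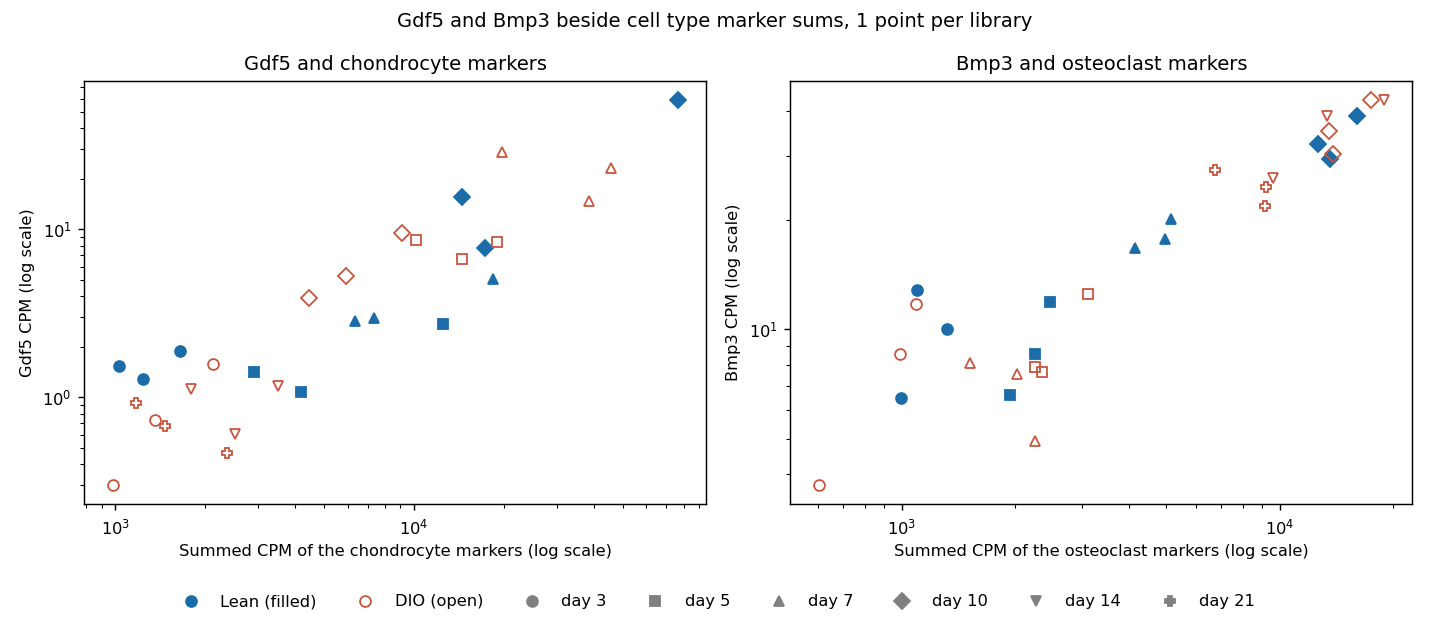
CPM of Gdf5 against the summed CPM of 10 chondrocyte markers (left) and of Bmp3 against that of 6 osteoclast markers (right), both axes logarithmic, with 1 point per library, filled blue for Lean and open red for DIO, and the day given by the symbol. Lean d10 mouse 1 is the point at the upper right on the left, and the d10 libraries of both diets lie together at the upper right on the right.

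Among the members themselves, Bmp7 and Bmp3 were the most alike pair over the 30 libraries (r = 0.955, rho = 0.943, and 0.947 for r without the 2 libraries farthest from the median of Bmp7). Bmp4 followed with Bmp3 (0.796 and 0.819) and Bmp7 (0.758 and 0.773). Gdf5 and Nog were at 0.642 and 0.562. Of the antagonist pairs, Nog and Chrd had r = 0.540 (rho = 0.415), while Grem1 had r = -0.637 with Nog and -0.627 with Chrd. Of 14808 genes with a mean of at least 1 CPM, those most like each member by Pearson's r of log2 CPM were Rbp4 (0.937), Pcolce2 (0.917) and Anxa8 (0.915) for Gdf5, Cadm1 (0.970), Lipc (0.966) and Enpp6 (0.960) for Bmp3, and Bmp3, Enpp6 (0.945) and Itgb3 (0.944) for Bmp7. For Bmp4 they were Kazald1 (0.918), Klc4 (0.916) and Pou6f1 (0.915), for Bmp6 Ffar4 (0.870), Adgrg6 (0.867) and Atp1b3 (0.821), for Bmp5 Dsel (0.884), Slc12a2 (0.869) and Lrp6 (0.865), and for Bmp2 Mlph (0.836), Vegfa (0.836) and Tiam2 (0.818). For the antagonists they were Chst1 (0.882), Pth1r (0.871) and Fam129b (0.863) for Nog, Lepr (0.907), F8 (0.884) and Pard3b (0.866) for Grem1, and Angptl2 (0.865), Col14a1 (0.862) and Prrx2 (0.860) for Chrd.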

How the data were processed

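RNA-seq was done on 30 calli, and the authors deposited raw read counts per gene without normalization. Per the labels and the study's methods, polyA libraries were made with a stranded kit, reads were demultiplexed with bcl2fastq, trimmed with BBDuk, aligned to GRCm38 with HISAT2 2.1.0 and counted on genes with HTSeq. The HTSeq version, strand setting and annotation are not given in the sources used here. Symbols and positions came from GENCODE M21 by Ensembl identifier (42548 of 43629 matched), and 129 of 130 list genes were found.

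Everything else was computed from these counts. The count table was scaled with TMM factors and filtered with filterByExpr in edgeR 4.0.16 (R 4.3.3), and changes were tested with its two-sided quasi-likelihood F-test, with Benjamini-Hochberg adjustment over all genes and a threshold of 0.05. Lean days were compared in 1 fit of 12 libraries, DIO days in 1 fit of 18, and diets within each day. Correlations used log2 CPM with a prior count of 2, and a gene was taken as detected at 3 counts. The fitted spread is between mice, and counting error is added for low levels such as the 5 counts of Gdf5 in a DIO d3 library.

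Alternatives were RLE factors, DESeq2 1.42.0, no filter but 1 count, the replicate number as a block, all 30 libraries in 1 fit, and each mouse left out in turn. On simulated data with 200 changed genes, edgeR found 90 of 100 changed by 1.5 and 97 of 100 changed by 2.5 on the log2 scale, with 9 false calls, in the DIO d10 against d7 fit over 16995 genes, and DESeq2 found 93 and 98 with 30 false calls. For the diets on d7 edgeR found 83 and 100 with 14 false calls, and DESeq2 92 and 100 with 44. For the change of the diet difference edgeR found 70 and 98 with 5 false calls, and DESeq2 78 and 99 with 22. For Lean d10 against d7 edgeR found 85 and 98 with 10 false calls. The changed genes were drawn above a floor on the mean CPM, so lower genes were not covered. Deviations of same-numbered mice from their group means correlated by 0.204 to 0.277 in Lean d7 against d5, where the block changed no member's call. All 3 correlations were also positive in the other Lean comparisons and in DIO d14 against d10, with lowest values of 0.004 to 0.067. All pairs of libraries of a group differed beyond sampling noise (chi-square per degree of freedom from 12.8 to 148). BLAST 2.17.0 found stretches of 100 bases or more at 95% identity or above shared with other genes only in the opposite-strand overlaps and, for Grem1, in up to 109 bases of 3 genes. Named pathway genes are at most 3 per list and comparison with the smallest adjusted p. Members, lists and markers were chosen with earlier results of these data known.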

Additional observations from a re-analysis of the deposited data

Results flagged for a closer look

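In 2 members the DIO against Lean difference changed between d7 and d10 by the interaction test of edgeR. For Gdf5 the log2 difference changed by -4.74 (SE 0.81, adjusted p = 0.00334), from 2.62 on d7 to -2.11 on d10 in the fits of each day, with all 3 DIO mice above all Lean mice on d7. For Bmp6 it changed by -1.97 (SE 0.56, adjusted p = 0.0444), from 0.89 on d7 to -1.08 on d10, and Lean d10 mouse 1 held 39.2 CPM of Bmp6 beside 12.9 and 12.7 CPM in the other mice of its group. Without that mouse the change was -3.50 for Gdf5 (adjusted p = 0.00746) and -1.21 for Bmp6 (adjusted p = 0.205). Groups of 3 mice are too small for a test of single outlying libraries, and none was run.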

How the results depend on the processing

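RLE factors left all counts of called members as they were. DESeq2 called 2 members from d5 to d7 in DIO callus in place of 0, 2 between the diets on d5 in place of 1, and 4 for the change of the diet difference in place of 2, and testing with no filter on low counts also called 2 from d5 to d7. DESeq2 further called 3 in place of 2 for Lean d10 against d7 (Bmp3 added, 0.0155) and between the diets on d7 (Bmp4 added), 6 in place of 5 for Lean d10 against d3 and over all Lean days (Nog added), and 10 in place of 9 over all DIO days (Bmp2 added). One fit of all 30 libraries called 0 members from d10 to d14 and 0 between the diets on d5, in place of 1 each. With the replicate number as a block, members called went from 1 to 0 between the diets on d5 (Gdf5, adjusted p = 0.203) and from 2 to 1 for the change of the diet difference (Bmp6, 0.0623), Bmp5 was lost in DIO d10 against d7 (0.0676), and Bmp3 was gained in Lean d10 against d7 (0.0356). No pairing of mice is named in the labels. Correlations of same-numbered mice were 0.204 to 0.277 in Lean d7 against d5 and ran from -0.399 to 0.32 in the other comparisons.

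Leaving out 1 mouse at a time gave, in Lean callus, 0 to 2 members for d10 against d7, 5 to 6 for d10 against d3 and 4 to 7 over all days. In DIO callus it gave 1 to 2 for d5 against d3, 0 to 1 for d7 against d5, 4 to 6 for d10 against d7, 0 to 1 for d14 against d10, 0 to 3 for d21 against d14 and 9 to 10 over all days. Between the diets it gave 0 to 2 on d5, 1 to 2 on d7 and 0 on d3 and d10, with 1 to 4 for the change and 1 to 2 for the time course. Only changes of single members at an unadjusted p under 0.05 were followed over the settings, and none of them reversed. Under other settings 219 values of these kept their side of the threshold, 15 passed newly and 6 were lost. With 1 mouse left out these numbers were 273, 9 and 42.

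Counts over all genes depended more on the tool. DESeq2 called 605 genes against 74 by edgeR for Lean d5 against d3, 37 against 0 for d7 against d5, 1827 against 450 for d10 against d7 and 4847 against 3132 over all days. In DIO callus it called 575 against 285 (d5 against d3), 346 against 3 (d7 against d5) and 552 against 129 (d14 against d10), and between the diets 728, 1150, 944 and 47 against 0, 170, 366 and 0 on d3, d5, d7 and d10, with 1496 against 865 for the change and 2497 against 1386 for the time course. Without the filter, 169 were called for Lean d5 against d3, 478, 271 and 329 for the DIO steps to d5, d7 and d14, and 515, 565, 724 and 29 between the diets. The block gave 199 and 1479 for Lean d5 against d3 and d10 against d7, 45 for DIO d14 against d10, and 325 and 0 between the diets on d3 and d5. One fit of all 30 libraries gave 202, 2 and 1529 for the Lean steps, 1 and 2 for the DIO steps to d7 and d14, and 63, 675 and 3 between the diets on d5, d7 and d10. Without 1 mouse the counts ran, in Lean callus, from 9 to 129 for d5 against d3, 24 to 1141 for d10 against d7, 2863 to 5016 for d10 against d3 and 1678 to 3130 over all days. In DIO callus they ran from 90 to 216, 0 to 236, 0 to 459 and 1285 to 4070 for the steps to d5, d7, d14 and d21, between the diets from 0 to 237, 0 to 935, 29 to 936 and 0 to 10 on d3, d5, d7 and d10, and from 257 to 1660 for the change and 619 to 1983 for the time course. With 3 mice a group and 13247122 counts in the smallest library, the SE of a member's diet difference reached 0.69 on the log2 scale, for Gdf5 on d10.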
